A study of Homo sapiens with 6 samples.

Results

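The genes described here are the 36 that feed pyruvate into the tricarboxylic acid (TCA) cycle, turn the cycle and refill it. They were taken by symbol from the deposited read count table, which lists 31582 genes, and each of the 36 symbols occurred there once. All 36 passed the filter on low counts, which kept 16394 genes. The RNA came from MDA-MB-231, an established human triple-negative breast cancer cell line, grown in DMEM with fetal bovine serum and collected before confluence. The study compared 3 libraries of MDA-MB-231-shCALR cells, labelled CALR knockdown, with 3 libraries of MDA-MB-231-NTC cells, labelled control. The sources used here do not give the number of shRNA sequences, clones or separate cultures behind the 3 libraries of a group, so p-values measure only the spread between these libraries. The series title places calreticulin, the calcium-binding chaperone encoded by CALR, under HIF-1, and HIF-1 is known to restrain pyruvate oxidation through the kinase gene PDK1.

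Pyruvate made by glycolysis enters mitochondria through a carrier of MPC1 and MPC2. The pyruvate dehydrogenase (PDH) complex then turns it into acetyl-CoA, and PDH kinases switch the complex off while PDH phosphatases switch it on. Acetyl-CoA joins oxaloacetate as citrate, which the TCA cycle oxidises step by step, and citrate can also leave mitochondria and be split by ATP citrate lyase to supply fatty acid and sterol synthesis. Anaplerosis is the refilling of cycle intermediates, chiefly from pyruvate by pyruvate carboxylase and from glutamine by way of glutamate. In tumour cells these same reactions supply carbon for lipids, aspartate and nucleotides.

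The promoters of 4 members that mark the results below are shown first, because PC and SLC25A1 had the largest differences of the 36 and because PDHB and PDHX, which encode partners in the same complex, had opposite signs. Each is 300 bases long, runs 5′ to 3′ across the gene's RefSeq start in GRCh38.p14 and lies mostly upstream of it. They were read from a RefSeq promoter table, which held 33 of the 36 members (not OGDH, PDP1 and SDHC). Capitals mark ACGTG or GCGTG, the core bound by HIF-1, on either strand (as CACGT or CACGC on the printed strand).
PC (chr11:66958334-66958633, minus strand): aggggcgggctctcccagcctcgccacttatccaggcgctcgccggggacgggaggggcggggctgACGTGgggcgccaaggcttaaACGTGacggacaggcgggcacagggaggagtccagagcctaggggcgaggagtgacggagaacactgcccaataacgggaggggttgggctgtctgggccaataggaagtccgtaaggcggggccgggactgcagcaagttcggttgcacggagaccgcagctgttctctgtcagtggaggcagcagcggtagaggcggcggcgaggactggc
SLC25A1 (chr22:19178687-19178986, minus strand): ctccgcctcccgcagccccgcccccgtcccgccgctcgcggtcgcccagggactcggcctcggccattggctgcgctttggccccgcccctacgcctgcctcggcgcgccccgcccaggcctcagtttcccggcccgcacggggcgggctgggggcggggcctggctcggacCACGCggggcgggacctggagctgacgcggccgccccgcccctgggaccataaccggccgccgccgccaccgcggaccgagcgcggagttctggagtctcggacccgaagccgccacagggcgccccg
PDHB (chr3:58433783-58434082, minus strand): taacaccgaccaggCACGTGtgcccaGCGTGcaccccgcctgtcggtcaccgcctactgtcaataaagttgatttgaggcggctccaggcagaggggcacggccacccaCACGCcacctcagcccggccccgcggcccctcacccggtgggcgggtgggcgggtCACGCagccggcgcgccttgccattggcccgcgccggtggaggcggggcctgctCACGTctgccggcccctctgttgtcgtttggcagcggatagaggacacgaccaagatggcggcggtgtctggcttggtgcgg
PDHX (chr11:34916188-34916487, plus strand): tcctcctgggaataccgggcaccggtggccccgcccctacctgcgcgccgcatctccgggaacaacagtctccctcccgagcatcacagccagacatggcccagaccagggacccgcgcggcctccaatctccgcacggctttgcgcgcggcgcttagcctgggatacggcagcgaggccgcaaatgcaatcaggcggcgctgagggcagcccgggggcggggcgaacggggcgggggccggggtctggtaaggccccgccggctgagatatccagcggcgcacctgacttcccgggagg
The PC promoter held 2 matches, SLC25A1 1, PDHB 6 and PDHX 0. The promoter of PDK1, which is not shown, also held 0. In PDHB the palindrome CACGTG counts for a match on each strand. Over the 33 members, 7 promoters (21.2%) held ACGTG and 21 (63.6%) held GCGTG, against 21.4% and 36.5% of all 35116 promoters of that length and 26.6% and 50.0% of the 10460 promoters matched to tested genes. The motif of the mitochondrial gene regulator NRF1, searched as GCGC, any base and TGCGC, was in 8 members' promoters (24.2%), against 5.78% of all promoters and 11.4% of those of tested genes. These 8 were GLUD1, IDH3A, IDH3G, MPC2, SDHA, SDHD, SLC25A11 and SUCLA2. The bases AAGGTCA, bound by oestrogen-related receptors, were in 3 (9.09%, against 3.92% of all and 2.54% of those of tested genes), namely SDHB, SDHD and SUCLA2. The E-box CACGTG, which contains ACGTG, was in 1 (PDHB, 3.03%, against 7.26% of all and 9.98% of those of tested genes). The sterol element TCACNCCAC was in 1 (GOT1, 3.03%, against 1.13% of all and 1.16% of those of tested genes). All motifs were searched on both strands, and a match describes letters only.

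Library totals lay between 34639090 and 42425310 counts, and the 36 members together took 0.381 to 0.391% of the counts in knockdown libraries and 0.343 to 0.360% in controls. CALR was at 493, 66.4 and 110 CPM (read counts scaled to a common library size with TMM factors) in the 3 knockdown libraries in order, against 1213, 979 and 926 CPM in control replicates 1 to 3. More CALR was left in replicate 1, with 47.5% of the control mean, than in replicates 2 and 3, with 6.39% and 10.6%, and the log2 fold change of −2.22 ± 0.64 (SE) had an adjusted p of 0.209 in edgeR. The line's own markers VIM, CD44, AXL, CAV1 and MSN were abundant, summing to 4553 to 5790 CPM in knockdown and 3299 to 3770 CPM in control libraries, and 5 luminal genes (ESR1, PGR, CDH1, GATA3, FOXA1) summed to 11.5 to 15.6 CPM in knockdown and 9.39 to 12.7 CPM in control libraries. The 8 markers of blood, endothelial, mural and fat cells summed to 2.24 to 4.97 CPM in knockdown and 1.40 to 3.23 CPM in control libraries, with CD3E and ADIPOQ each at 0 counts in 5 of 6 libraries. The highest of the 8 in every library was PECAM1, an endothelial and blood cell adhesion gene, at 4.17, 1.71 and 1.82 CPM in knockdown libraries and 1.56, 0.961 and 0.848 CPM in controls. Its groups were apart, with a log2 fold change of 1.19 ± 0.44 (unadjusted p = 0.024, adjusted p = 0.264 in edgeR), and its part in the results below was not tested. In the knockdown libraries, expression also followed GC content, and in opposite ways. Genes with at most 43.0% GC had a median log2 CPM difference from the control mean of −0.40, 0.12 and −0.53 across knockdown replicates 1, 2 and 3. Genes with at least 56.4% GC had medians of 0.18, −0.13 and 0.38 in the same order. In control replicates 1 to 3 these medians were 0.0076, −0.068 and 0.064 at low GC and 0.017, 0.059 and −0.070 at high GC. Knockdown replicate 2 therefore stood apart from the other knockdown libraries, although its medians were the nearest to those of the controls. Values without it are given below. In bulk RNA, fewer cells expressing a gene and less of its RNA per cell cannot be told apart.

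More of the pathway genes lay above the controls than below them. Of the 36, 26 had a positive log2 fold change (72.2%, against 49.9% of all genes tested), with a median of 0.26 against −0.00072 for all genes. By edgeR's quasi-likelihood test 0 of the 36 passed the adjusted threshold of 0.05, as did 0.00% of all genes, and the members' adjusted p-values ran from 0.159 to 0.947. Before adjustment, 11 members (30.6%) had a p under 0.05 with knockdown higher and 0 with knockdown lower. Of all genes tested, 15.5% had such a p, 8.17% higher and 7.36% lower. All 3 knockdown libraries lay above all 3 controls for 10 members and below them for 0, against 11.3% and 11.2% of all genes. By DESeq2, 2 of the 36 passed the adjusted threshold, PC and SLC25A1 (3.23% of all genes passed). At an unadjusted p under 0.05 it gave 12 members, all higher in knockdown (9.41% of all genes higher, 16.4% in either direction). The count of 11 was 3 without control replicate 3 (IDH1, PC and SLC25A1, where 2.87% of all genes were higher) and 5 without control replicate 2 (3.86% of all genes). It was 7 without control replicate 1 (6.35%), 7 without knockdown replicate 1 (5.33%), 8 without knockdown replicate 3 (7.83%) and 18 without knockdown replicate 2 (17.9%), each with the share of all genes that were higher in that fit. No member passed the adjusted threshold in edgeR without knockdown replicate 3, where 0.819% of all genes did.

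**Figure D1:**
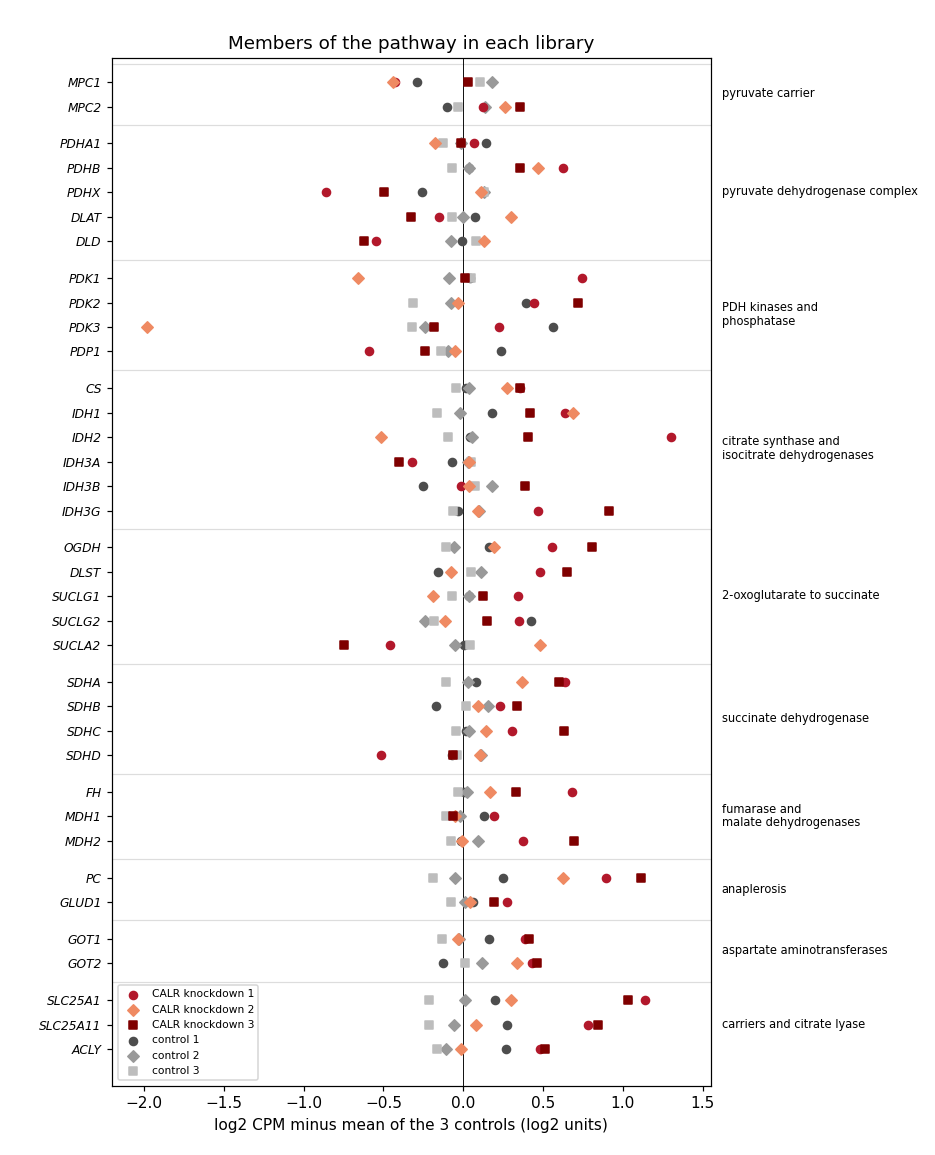
Each point is a library's log2 CPM minus the mean of the 3 controls (x axis, log2 units) for 1 of the 36 members, grouped by role. PC, SLC25A1, IDH1, SDHA and PDHB have all 3 knockdown libraries right of all controls, while PDHX, DLD and SUCLA2 have knockdown replicates 1 and 3 on the left and replicate 2 on the right or among the controls.

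Of the anaplerotic genes, PC had the largest difference of all members. PC encodes pyruvate carboxylase, which makes oxaloacetate from pyruvate, and lies at chr11:66848233-66958376 (GRCh38, GENCODE 29, minus strand). It was at 77.4, 64.3 and 90.0 CPM in the knockdown libraries, against 49.3, 40.0 and 36.4 CPM in the controls, each in order of replicate number. All knockdown libraries were above all controls, with the gap narrowest between knockdown replicate 2 and control replicate 1. Its log2 fold change of 0.88 ± 0.19 (SE) was the largest of the 36 (unadjusted p = 0.0015, adjusted p = 0.159 in edgeR). Exon bases shared with LRFN4 on the other strand made up 10.48% of PC, and strand handling during counting is not given in the sources used here. GLUD1, glutamate dehydrogenase, was at 206, 175 and 195 CPM in knockdown and 178, 172 and 162 CPM in control libraries. These groups overlapped, with a log2 fold change of 0.17 ± 0.15, and it shares 13.2% of its exon bases with SHLD2 on the other strand.

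The pyruvate carrier genes had log2 fold changes of opposite sign. MPC1 was at 29.1, 28.9 and 40.0 CPM in knockdown libraries and 32.1, 44.5 and 42.1 CPM in controls (log2 fold change −0.28 ± 0.21). MPC2 was at 82.8, 91.2 and 97.1 CPM in knockdown libraries and 70.8, 83.4 and 74.3 CPM in controls (0.25 ± 0.15). Without GC correction neither gene alone separated the groups, but the ratio of MPC1 to MPC2, taken per length from FPKM values, did. It was 0.667, 0.601 and 0.781 across the knockdown libraries, below the controls at 0.858, 1.01 and 1.07. The difference of −0.52 in log2 ratio had p = 0.1 in an exact two-sided permutation test, the smallest that 3 against 3 allows. Its adjusted p was 0.4 over the 8 ratios examined. With each library's GC trend removed, MPC2 alone separated the groups. Its log2 differences from the control mean were then 0.147, 0.260 and 0.403 in knockdown libraries and −0.095, 0.143 and −0.048 in controls. MPC1 then had overlapping groups and a log2 fold change of −0.13, and the ratio was not examined in that setting. The RNA ratio of PC to PDHA1 was 0.726, 0.713 and 0.893 in knockdown and 0.441, 0.400 and 0.393 in control libraries. Its log2 difference was 0.91 (exact permutation p = 0.1, adjusted p = 0.4). Of the 5 PDH complex genes, PDHA1 was among 4 with a negative log2 fold change (−0.04), while PDHB was at 0.49. Ratios of PC to the other subunit genes were not examined, and an RNA ratio does not measure the use of either route of pyruvate. MPC2 shares 22.5% of its exon bases with DCAF6 and PDHA1 21.3% with MAP3K15, both on the other strand.

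Subunits of the PDH complex did not share a direction. PDHB, the beta subunit of its E1 enzyme, at chr3:58427630-58433857 (GRCh38, minus strand), was at 205, 184 and 170 CPM in knockdown libraries and 136, 137 and 127 CPM in controls. The groups were fully apart, and the log2 fold change was 0.49 ± 0.15 (unadjusted p = 0.010, adjusted p = 0.219 in edgeR). PDHA1, the alpha subunit of the same enzyme and its site of phosphorylation, was at 83.4, 70.5 and 78.7 CPM in knockdown libraries and 87.9, 78.7 and 73.0 CPM in controls, with a log2 fold change of −0.04 ± 0.16. PDHX, which tethers the E3 enzyme to the core, was at 35.6, 69.6 and 45.7 CPM in knockdown libraries and 53.8, 70.7 and 70.6 CPM in controls (−0.37 ± 0.25). The partners beyond E1 were lower in part of the knockdown libraries. DLD, the E3 enzyme itself, which the 2-oxoglutarate dehydrogenase complex also uses, was at 61.2, 98.0 and 58.1 CPM in knockdown libraries and 89.1, 85.0 and 94.7 CPM in controls (−0.31 ± 0.22). DLAT, the E2 core, was at 68.4, 93.5 and 60.4 CPM in knockdown libraries and 79.8, 75.7 and 72.4 CPM in controls (−0.04 ± 0.19). Knockdown replicates 1 and 3 were thus below every control for PDHX, DLD and DLAT, while replicate 2 was above every control for DLD and DLAT and among the controls for PDHX.

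None of the 4 members that switch the PDH complex separated the groups, and their log2 fold changes had both signs. PDK1, the PDH kinase known as a HIF-1 target, was at 38.7, 14.6 and 23.3 CPM in knockdown replicates 1 to 3 and 23.7, 21.7 and 23.9 CPM in controls. Replicate 1 was the highest and replicate 2 the lowest of the 6, and the log2 fold change was 0.14 ± 0.32. It was −0.01 with library size alone, a scaling that puts the median of all genes at −0.13, −0.085 on the log2(FPKM + 0.1) scale and −0.29 without knockdown replicate 1. In the other direction, it was 0.43 without knockdown replicate 2 and 0.40 with the GC trend removed. With both changes, a setting chosen after seeing the data, it was 0.76 (adjusted p = 0.069 in edgeR). PDK2 was at 33.4, 23.9 and 40.5 CPM in knockdown libraries and 32.2, 23.3 and 19.7 CPM in controls (0.38 ± 0.26), with 38.6% of its exon bases shared with SAMD14 on the other strand. PDK3 was low throughout, at 2.37, 0.472 and 1.77 CPM in knockdown libraries and 3.02, 1.70 and 1.604 CPM in controls (−0.46 ± 0.54). These groups overlapped for both. The phosphatase gene PDP1 was at 36.6, 53.1 and 46.7 CPM in knockdown libraries and 64.9, 51.5 and 49.99 CPM in controls (−0.29 ± 0.20). Per length, PDK2 was the most abundant of these kinase genes, at mean FPKM values of 7.46 in knockdown and 6.29 in control libraries, against 1.59 and 1.59 for PDK1 and 0.537 and 0.817 for PDK3. Neither ratio of PDK1 to another kinase separated the groups, with log2 differences of −0.33 against PDK2 and 0.57 against PDK3 (exact permutation p = 0.4 and 0.2).

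**Figure D2:**
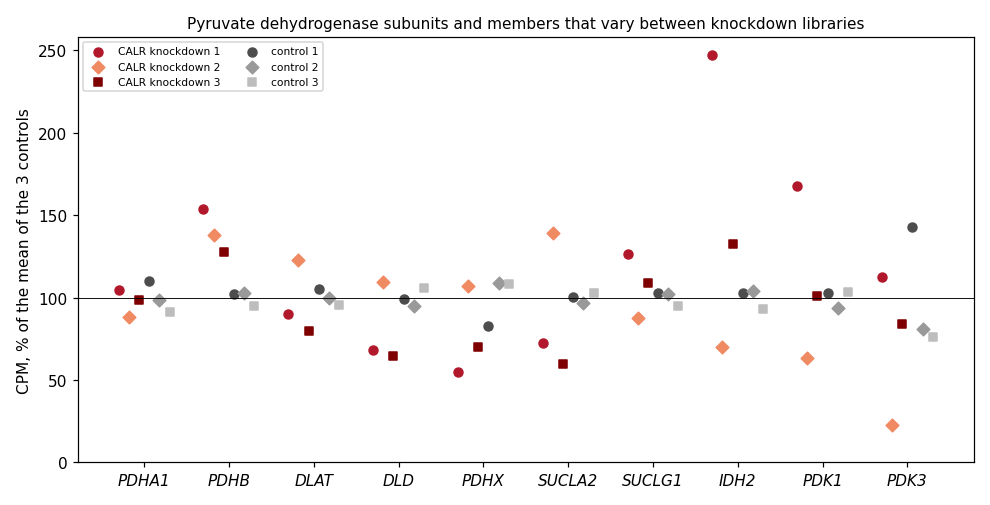
CPM of the PDH complex subunits and of 5 other members in each library, as a percentage of the mean of the 3 controls (y axis from 0), with knockdown libraries left of controls. Knockdown replicate 2 stands at 109% for DLD and 139% for SUCLA2, where replicates 1 and 3 stand at 68.3% and 64.8% and at 72.7% and 59.5%.

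Citrate formation and oxidation held several of the higher members. CS, citrate synthase, which condenses acetyl-CoA with oxaloacetate, was at 166, 157 and 166 CPM in knockdown libraries and 131, 133 and 125 CPM in controls. The difference was small but even, with a log2 fold change of 0.33 ± 0.14 (unadjusted p = 0.043, adjusted p = 0.308 in edgeR) and no overlap between groups. IDH1, the cytosolic NADP-dependent isocitrate dehydrogenase, at chr2:208236227-208266074 (GRCh38, minus strand), was at 128, 132 and 110 CPM in knockdown libraries and 93.1, 80.9 and 73.2 CPM in controls. That was a log2 fold change of 0.58 ± 0.16 (unadjusted p = 0.0065, adjusted p = 0.202). IDH2, its mitochondrial counterpart, was at 24.5, 6.93 and 13.1 CPM in knockdown libraries and 10.2, 10.3 and 9.26 CPM in controls. Replicates 1 and 3 were above all controls and replicate 2 below them, and the log2 fold change was 0.58 ± 0.39 (unadjusted p = 0.174 in edgeR). Per length IDH1 exceeded IDH2 by 5.20, 18.5 and 8.25 times in knockdown replicates 1 to 3 and by 8.97, 7.74 and 7.77 times in controls. Replicate 2 had the highest ratio and replicate 1 the lowest of the 6. That log2 ratio differed by 0.19 (exact permutation p = 0.8), or by −0.31 without knockdown replicate 2.

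Of the NAD-dependent isocitrate dehydrogenase that works in the cycle itself, the 3 subunit genes had log2 fold changes of both signs. The regulatory IDH3G was at 42.8, 33.0 and 58.1 CPM in knockdown libraries and 30.2, 33.0 and 29.5 CPM in controls, with a log2 fold change of 0.53 ± 0.22 (unadjusted p = 0.041, adjusted p = 0.304). Knockdown replicate 2 lay within the controls. IDH3G shares 10.2% of its exon bases with SSR4 on the other strand. IDH3B was at 137, 142 and 180 CPM in knockdown libraries and 116, 156 and 145 CPM in controls (0.14 ± 0.18, and −0.0088 with library size alone). IDH3A, the catalytic subunit, was at 39.8, 51.1 and 37.6 CPM in knockdown libraries and 47.3, 50.7 and 51.4 CPM in controls (−0.22 ± 0.18), and shares 38.9% of its exon bases with CIB2 and ACSBG1 on the other strand.

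Next in the cycle, OGDH, the E1 enzyme of the 2-oxoglutarate dehydrogenase complex, was at 128, 99.4 and 152 CPM in knockdown libraries and 97.2, 83.7 and 80.8 CPM in controls. Every knockdown library was above every control, replicate 2 by the least, and the log2 fold change was 0.54 ± 0.19 (unadjusted p = 0.021, adjusted p = 0.255 in edgeR). DLST, the E2 core of that complex, was at 199.99, 136 and 224 CPM in knockdown libraries and 128, 155 and 148 CPM in controls (0.38 ± 0.21). Succinyl-CoA ligase makes GTP or ATP depending on its beta subunit. The shared alpha subunit gene SUCLG1 was at 91.6, 63.2 and 78.6 CPM in knockdown libraries and 74.2, 74.0 and 68.7 CPM in controls (0.11 ± 0.18, and −0.038 with library size alone). SUCLG2, the GTP-forming subunit, was at 29.2, 21.1 and 25.4 CPM in knockdown libraries and 30.7, 19.4 and 20.1 CPM in controls (0.11 ± 0.24, and −0.028 with library size alone). For both of these genes the groups overlapped. SUCLA2, the ATP-forming subunit, was at 20.0, 38.4 and 16.4 CPM in knockdown libraries and a narrow 27.7, 26.6 and 28.4 CPM in controls (−0.14 ± 0.30). The SUCLA2 to SUCLG2 ratio per length was accordingly 0.979, 2.57 and 0.925 in knockdown replicates 1 to 3, against 1.28, 1.95 and 1.995 in controls (exact permutation p = 0.5).

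Succinate dehydrogenase, which is also complex II of the respiratory chain, was led by its catalytic subunit gene SDHA, at chr5:218241-256700 (GRCh38, plus strand). It was at 245, 203 and 238 CPM in knockdown libraries and 166, 161 and 146 CPM in controls, without overlap, a log2 fold change of 0.54 ± 0.15 (unadjusted p = 0.0068, adjusted p = 0.205 in edgeR). Reads could also be shared with the near-identical pseudogenes SDHAP1 and SDHAP3, which were listed at 192 to 238 and 67 to 102 counts in knockdown and at 185 to 249 and 65 to 96 counts in control libraries. SDHC, a membrane anchor subunit, was at 169, 151 and 212 CPM in knockdown libraries and 138, 140 and 132 CPM in controls, again without overlap (0.37 ± 0.17, unadjusted p = 0.055). The remaining subunits did not separate the groups. The iron-sulphur subunit gene SDHB was at 124, 113 and 133 CPM in knockdown libraries and 93.8, 118 and 107 CPM in controls (0.22 ± 0.16). The other anchor gene, SDHD, was at 112, 172 and 153 CPM in knockdown libraries and 153, 173 and 156 CPM in controls (−0.14 ± 0.19). SDHD shares 11.2% of its exon bases with AP002884.3 on the same strand.

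FH, fumarase, was at 152, 107 and 119 CPM in knockdown libraries and 95.3, 96.6 and 92.6 CPM in controls. The controls were tightly grouped and all knockdown libraries stood above them, with a log2 fold change of 0.41 ± 0.17 (unadjusted p = 0.042, adjusted p = 0.304 in edgeR). MDH2, mitochondrial malate dehydrogenase and the most abundant member per length at mean FPKM values of 133 in knockdown and 113 in control libraries, was at 402, 308 and 502 CPM in knockdown libraries and 308, 331 and 294 CPM in controls (0.38 ± 0.20). Its cytosolic partner MDH1 was at 202, 170 and 169 CPM in knockdown libraries and 193, 174 and 163 CPM in controls (0.03 ± 0.16, and −0.11 with library size alone). The MDH1 to MDH2 log2 ratio differed by −0.33 with overlapping groups (exact permutation p = 0.2). Of the aspartate aminotransferases, which make aspartate and carry out the malate-aspartate shuttle, mitochondrial GOT2 was at 190, 178 and 194 CPM in knockdown libraries and 129, 153 and 142 CPM in controls. That was a log2 fold change of 0.41 ± 0.15 (unadjusted p = 0.023, adjusted p = 0.259), with the groups apart. Cytosolic GOT1 was at 85.8, 64.2 and 87.4 CPM in knockdown libraries and 73.3, 64.3 and 59.9 CPM in controls (0.26 ± 0.18), and the GOT1 to GOT2 log2 ratio differed by −0.15 (exact permutation p = 0.6).

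The carriers and citrate lyase all had positive log2 fold changes. SLC25A1, the mitochondrial citrate carrier, at chr22:19175575-19178830 (GRCh38, minus strand), was at 152, 84.8 and 141 CPM in knockdown libraries and 79.2, 69.6 and 59.5 CPM in controls. Replicates 1 and 3 were at 219% and 203% of the control mean and replicate 2 at 122%, still above every control. The log2 fold change was 0.86 ± 0.24 (unadjusted p = 0.0056, adjusted p = 0.2 in edgeR). SLC25A11, the carrier that exchanges 2-oxoglutarate for malate, was at 93.6, 57.4 and 97.5 CPM in knockdown libraries and 65.8, 52.2 and 46.9 CPM in controls (0.59 ± 0.24, unadjusted p = 0.034, adjusted p = 0.287), with replicate 2 within the controls. ACLY, ATP citrate lyase, which cleaves the exported citrate, was at 272, 193 and 278 CPM in knockdown libraries and 235, 181 and 174 CPM in controls (0.33 ± 0.20).

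**Figure D3:**
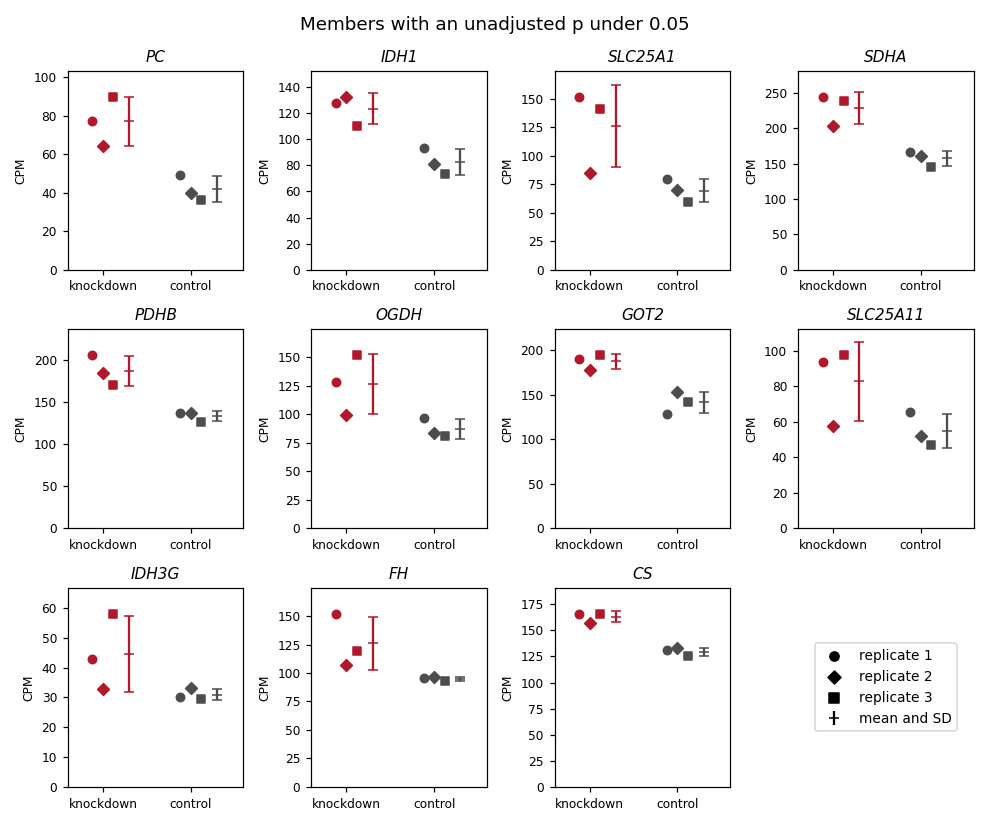
CPM in each library (y axis from 0) for the 11 members with an unadjusted p under 0.05, knockdown left and control right, with replicates by symbol and the mean ± SD (n = 3) beside them. Groups are apart for 9 of the 11, and knockdown replicate 2 meets the control range for SLC25A11 and IDH3G.

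The 3 knockdown libraries did not contribute alike. Over the 36 members the median difference from the control mean on the log2 CPM scale was 0.35 in knockdown replicates 1 and 3 and 0.084 in replicate 2. CALR stood at 47.5%, 6.39% and 10.6% of the control mean in knockdown replicates 1 to 3. The same libraries also differed in their GC trend, and with that trend removed the members' medians were 0.32, 0.084 and 0.33 in the same order. A relation of the members' median to the CALR left or to the GC trend was not tested. Members above the highest control numbered 23, 14 and 23 of 36 in knockdown replicates 1 to 3 (37.2%, 33.0% and 39.3% of all genes), and those below the lowest control numbered 8, 6 and 6 (40.0%, 34.9% and 39.8% of all genes). For 5 members, DLAT, DLD, IDH2, SUCLA2 and SUCLG1, replicates 1 and 3 lay on one side of all controls and replicate 2 on the other. That held for 14.4% of all genes tested, so 5 of 36 is close to the background.

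Leaving out knockdown replicate 2 gave 14 members an adjusted p under 0.05 in edgeR, 11 higher and 3 lower (38.9% of the 36, against 15.5% of all genes in that fit). Of the 16783 genes in that fit, 1303 passed as higher and 1301 as lower, so 3 of 36 lower is close to the background. The 11 higher were PC, SLC25A1, SLC25A11, PDHB, IDH2, IDH3G, OGDH, DLST, SDHA, FH and MDH2. There SLC25A1 had a log2 fold change of 1.08, PC of 1.001 and IDH2 of 0.93, and the 3 lower members were PDHX at −0.67, DLD at −0.58 and SUCLA2 at −0.59. Removing the GC trend of every library as well left 1 member, SLC25A1 at 0.86 with an adjusted p of 0.046 (2.11% of all genes passed). That combination was added after the data had been seen.

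GC content moved with these differences. Across the 36 members, log2 fold change and the GC content of their transcripts had a Pearson r of 0.74 and a Spearman rho of 0.72, against a Pearson r of 0.21 across all genes tested. This is a description across genes that share the same 6 libraries. The 11 higher members had a median GC of 52.4% and the other 25 a median of 44.2%, where all genes tested had 48.8%. SLC25A1, at 66.2%, and PC, at 61.2%, were the most GC-rich of the 36, and DLD, at 40.3%, and SUCLA2, at 40.5%, the poorest. With the GC trend of every library removed, the 36 had a Pearson r of 0.47 with GC content, a median log2 fold change of 0.23, and 12 members with an unadjusted p under 0.05, all higher in knockdown, as were 9.58% of all genes. In that fit IDH1 was at 0.70 ± 0.14, PDHB at 0.55 ± 0.13 and FH at 0.48 ± 0.16, all larger than without the correction and all genes of below-median GC. PC was at 0.73 ± 0.14, SLC25A1 at 0.75 ± 0.15, SDHA at 0.43 ± 0.12 and OGDH at 0.37 ± 0.13. The lower values moved towards the controls, to −0.28 ± 0.21 for PDHX and −0.09 ± 0.12 for DLD, and SUCLA2 turned to 0.03 ± 0.18 and DLAT to 0.11 ± 0.13. No member passed the adjusted threshold in edgeR, the lowest adjusted p being 0.077 for PC.

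**Figure D4:**
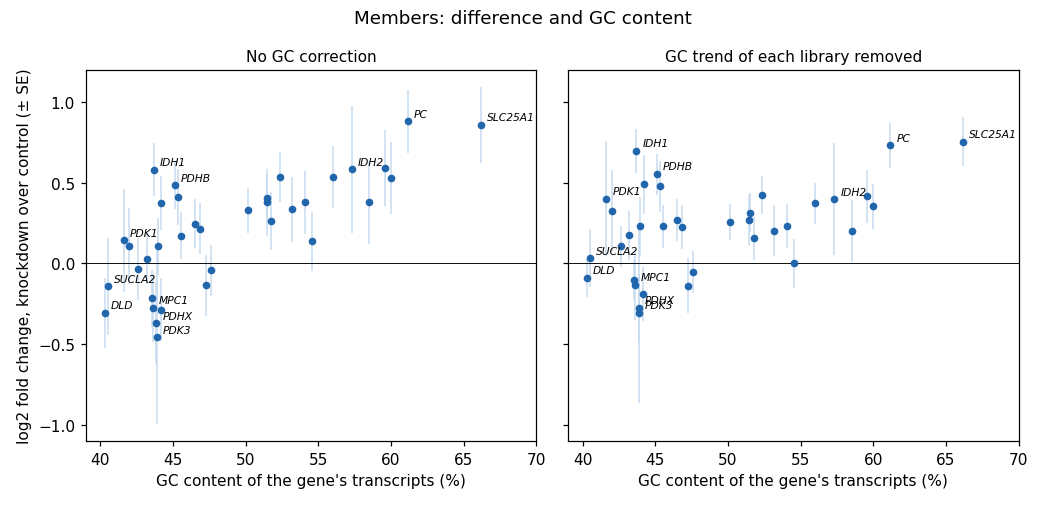
Log2 fold change of knockdown over control (y axis, with SE) against the GC content of each member's transcripts (x axis, %), without correction on the left and with each library's GC trend removed on the right. PC and SLC25A1 at the GC-rich end stay at 0.73 and 0.75 after the correction, IDH1 is at 0.70, and SUCLA2 and DLD at the GC-poor end come close to 0.

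The neighbouring genes of the pathway showed no common direction. Of 34 listed, 30 were tested, 15 with a positive and 15 with a negative log2 fold change and a median of 0.0088, and 0 passed the adjusted threshold in edgeR, against 1 by DESeq2. An unadjusted p under 0.05 was found for 7 (23.3%, against 15.5% of all genes), with 4 higher and 3 lower in knockdown. ME1, the cytosolic malic enzyme, which makes pyruvate and NADPH from malate, was at 53.3, 79.9 and 49.7 CPM in knockdown libraries and 34.8, 31.9 and 31.1 CPM in controls (0.90 ± 0.21, adjusted p = 0.169 in edgeR). The groups were apart and knockdown replicate 2 was the highest. With the GC trend removed it was at 1.16 ± 0.13 and passed the adjusted threshold (adjusted p = 0.038). SDHAF4, which helps to assemble succinate dehydrogenase, was at 0.64 ± 0.20, and the dicarboxylate carrier SLC25A10 at 0.66 ± 0.28 with 46.6% of its exon bases shared with another transcript on the same strand. Lower values were those of PDK4, a further PDH kinase gene, at 5.94, 6.68 and 13.0 CPM in knockdown libraries and 20.4, 14.5 and 14.7 CPM in controls (−0.95 ± 0.32, and −0.58 ± 0.39 with the GC trend removed). GPT2, the mitochondrial alanine aminotransferase, was at 50.4, 22.0 and 29.6 CPM in knockdown libraries and 65.2, 59.4 and 56.9 CPM in controls (−0.83 ± 0.28). OGDHL, a paralog of OGDH, was barely detected, averaging 0.153 CPM in knockdown and 0.604 CPM in control libraries (−1.97 ± 0.58).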

How the data were processed

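RNA of 3 CALR knockdown and 3 control libraries of MDA-MB-231 cells was sequenced from strand-specific, polyadenylated libraries, per the labels' protocols. FastQC 0.9.5, TopHat2 and GRCh38 are named in the submitters' processing notes; for counting, neither the program nor its strand setting is given in the sources used here. The authors deposited a table of raw read counts per gene and a table of FPKM values, a column per library, per the file headers. Totals were 34639090 to 42425310 counts per library, and the 3 libraries in each group set the precision of the comparisons; the effect of depth was not tested.

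Counts were filtered with filterByExpr (16394 of 31582 genes kept), scaled with TMM factors and tested by quasi-likelihood in edgeR 4.0.16 (R 4.3.3), with no covariate and Benjamini-Hochberg adjustment over all genes tested at a threshold of 0.05. The SE of a log2 fold change was derived from it and the F statistic (its size over √F). Log2 CPM values used a prior count of 2. Ratios of 2 genes used FPKM + 0.1 and an exact two-sided permutation test, adjusted over 8 ratios. GC content was pooled over the GENCODE 29 transcripts of a gene, and all 36 members had a value. Of the gene identifiers, 30871 matched GENCODE 29 without their version. Alternatives were other size factors, DESeq2 1.42.0, limma 3.58.1 (voom, and log2 of FPKM plus 1 or 0.1), other filters, omission of single libraries, a replicate block, and removal of each library's lowess trend with GC content. The code was tested on simulated counts.

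The rule for named genes was to name every member, with values in each library for a preset core and for members with an unadjusted p under 0.05 or groups that do not overlap. Values of the remaining members were added after they had been seen. Of the other pathway genes, ME1 and those with an unadjusted p under 0.05 are named, except 1 that is counted but not reported here. The members and lists were chosen with earlier results of these data known.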

Additional observations from a re-analysis of the deposited data

How the results depend on the processing

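Under the replicate block, 7 members (of 11 without it) had an unadjusted p under 0.05 with knockdown higher (5.98% of all genes, against 8.17% without it), and IDH1, OGDH, PC, PDHB, SDHA, SLC25A1 and SLC25A11 were these 7. To look for pairs, each gene's mean in its own group was subtracted from log2 CPM, and the remaining deviations were correlated between knockdown and control libraries. For same-numbered libraries these deviations had correlations of 0.196, −0.119 and −0.217, so the numbers were not taken as pairs. The deviations of knockdown replicate 2 correlated best with those of control replicate 3 (0.364). That count of members was 6 with library size alone (4.45% of all genes), 6 by limma on log2(FPKM + 1) and on log2(FPKM + 0.1) (5.50% in both), and 7 by limma on log2(FPKM + 1) without a filter (2.98%). Members passing the adjusted threshold numbered 2 by DESeq2 and 2 without a low-count filter, both times PC and SLC25A1. Over all genes, those passing numbered 530 by DESeq2, 988 without a filter (with 3888 at an unadjusted p under 0.05), 5 by unfiltered limma, 4 with the GC trend removed and 16 with the replicate block as well. The members' median was 0.12 with library size alone (21 of 36 positive) and 0.13 by limma on log2(FPKM + 0.1) (23 of 35 positive), against 0.26 (26 of 36) in the main fit. Measured from the median of all genes, it was 0.25 and 0.24, against 0.26. The median of the other pathway genes was −0.15 with library size alone and −0.091 by limma on log2(FPKM + 0.1), scalings under which the median of all genes was −0.13 and −0.11.

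Leaving out single libraries gave 0 to 2604 genes and 0 to 14 members past the adjusted threshold, and 1206 to 5978 genes, 3 to 18 higher members and 0 to 4 lower members at an unadjusted p under 0.05. The members' median was 0.21 to 0.38 and that of the other pathway genes −0.0069 to 0.13. The extremes came without control replicate 3 and without knockdown replicate 2 for the gene counts. The log2 ratio of IDH1 to IDH2 was −0.31 to 0.60 and that of SUCLA2 to SUCLG2 −0.84 to −0.11. It was −0.47 to −0.11 for MDH1 to MDH2, −0.23 to −0.0099 for GOT1 to GOT2, −0.64 to −0.16 for PDK1 to PDK2 and 0.33 to 0.77 for PDK1 to PDK3. It was −0.63 to −0.44 for MPC1 to MPC2 and 0.81 to 0.97 for PC to PDHA1. With the GC trend removed and knockdown replicate 2 left out, a setting chosen after seeing the data, 354 genes (2.11%) and 1 member passed the adjusted threshold. An unadjusted p under 0.05 was found for 4487 genes (26.7%, with 14.6% of all genes higher), 18 higher members and 1 lower member.

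Of 830 gene values under alternatives, 37 changed sign, all in 11 members. PDK1 was at −0.012 with library size alone, −0.036 and −0.085 by limma with pseudocounts of 1 and 0.1 (−0.036 unfiltered). In the same order SUCLG1 was at −0.038, −0.034 and −0.035 (−0.034 unfiltered) and MDH1 at −0.11, −0.099 and −0.10 (−0.099 unfiltered), with MDH1 at −0.012 under a CPM minimum of 1. With library size alone IDH3B was at −0.0088 and SUCLG2 at −0.028. With the GC trend removed DLAT was at 0.11 and SUCLA2 at 0.033, or 0.10 and 0.0071 with the replicate block. With the GC trend removed and without knockdown replicate 2, MPC1 was at 0.019, PDHA1 at 0.010, DLAT at 0.034, PDK3 at 0.16 and IDH3B at −0.040. Leaving out single libraries gave −0.10 to 0.034 for PDHA1, −0.23 to 0.11 for DLAT, −0.29 to 0.43 for PDK1, −0.025 to 0.24 for SUCLG1, −0.0089 to 0.35 for SUCLG2, −0.59 to 0.10 for SUCLA2, −0.27 to 0.024 for SDHD and −0.060 to 0.095 for MDH1. The cause of these sign changes was not tested. PDK3 had the lowest level of the members; the effect of depth was not tested.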

Other observations

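Some values of knockdown replicate 2 were singled out after they had been seen. In that library PDK3 was at 22.4%, PDK1 at 63.1% and IDH2 at 69.8% of their control means, and SUCLA2 was at 139% and ME1 at 245%. These are values of 1 library and were not tested.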
